A study of Homo sapiens with 12 samples.

Results

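The genes described here encode the building blocks of the cytoskeleton: the cytoplasmic actins ACTB and ACTG1, the actin-binding proteins PFN1 and CFL1, the alpha-tubulins TUBA1A, TUBA1B and TUBA1C, and the beta-tubulins TUBB, TUBB4B and TUBB6. They were chosen by name, and all 10 were found among the 15534 gene IDs of the table. HEK293T cells, a human embryonic kidney line, had been given DMSO (the solvent), a PRMT1 inhibitor or a PRMT4 inhibitor; these inhibitors act on enzymes that methylate arginine in proteins. Lysates were run on sucrose gradients, which sort mRNAs by the number of ribosomes on them, and each treatment gave 4 libraries: 1 from the unfractionated input and 3 from fractions holding mRNA bound by 1, by 2, or by at least 3 ribosomes. There was 1 library for each of the 12 pairs of treatment and fraction, so a difference between treatments cannot be set against the spread between cultures. The labels name no compound, dose or time for the inhibitors, and the fractions rest on reading the column names R1, R2 and R3 as the ribosome numbers in the sample titles.

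Actin monomers assemble into filaments that shape and move the cell. Profilin loads monomers onto growing filament ends, and cofilin severs old filaments. Alpha- and beta-tubulin pair up and stack into microtubules. Tubulin mRNAs are known for a control that works on the ribosome: when free tubulin is in excess, the factor TTC5 recognises the first residues of a new tubulin chain as they emerge, and the mRNA being translated is degraded.

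The starts of the coding sequences are shown because they encode the residues that TTC5 reads and because they show how alike the genes are. They are the first 30 bases from GENCODE release 29, with the first 4 codons in capitals.
ACTB, chromosome 7, minus strand: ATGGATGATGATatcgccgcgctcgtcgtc
ACTG1, chromosome 17, minus strand: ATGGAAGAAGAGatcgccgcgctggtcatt
TUBA1A, chromosome 12, minus strand: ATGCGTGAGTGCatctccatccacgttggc
TUBA1B, chromosome 12, minus strand: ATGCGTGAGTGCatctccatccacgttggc
TUBA1C, chromosome 12, plus strand: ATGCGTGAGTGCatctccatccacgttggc
TUBB, chromosome 6, plus strand: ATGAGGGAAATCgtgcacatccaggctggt
TUBB4B, chromosome 9, plus strand: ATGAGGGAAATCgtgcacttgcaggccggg
TUBB6, chromosome 18, plus strand: ATGAGGGAGATCgtgcacatccaggcgggc
The 3 alpha-tubulins share the same 30 bases. Over the whole coding sequence TUBA1A and TUBA1B were 97.2% identical, TUBA1B and TUBA1C 96.8%, and TUBA1A and TUBA1C 95.9%, with unbroken identical stretches of up to 326 bases. ACTB and ACTG1 were 91.3% identical, TUBB and TUBB4B 84.4%, TUBB4B and TUBB6 83.2%, and TUBB and TUBB6 80.9%. Fragments from stretches longer than a read cannot be given to 1 alpha-tubulin by sequence, so the split of values among TUBA1A, TUBA1B and TUBA1C is uncertain.

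The values are FPKM, fragments per kilobase of transcript scaled to library size, as the authors listed them. Low FPKM values fell in steps that put the libraries at about 438000 to 604000 counted fragments. The DMSO input stood apart: its FPKM summed to 186954, against 303228 to 395449 in the other 11 libraries, and it listed 2949 of the genes tested at 0, against 1175 to 2094. For these 10 genes that meant from 0 fragments (TUBB4B with 1 ribosome in DMSO) to about 420 (PFN1 with 3 or more ribosomes in DMSO); intervals below are exact 95% intervals on those estimated fragments and cover counting error only. In GENCODE, 8 of the 10 genes share exonic bases with a gene on the opposite strand, against 45.4% of the 10805 genes tested, and ACTB and ACTG1 do not. PFN1 shares 111 bases with ENO3, CFL1 759 with MUS81 and 357 with SNX32, TUBB4B 124 with FAM166A, and TUBB6 837 with AFG3L2, while TUBA1A and TUBA1C share 490 bases with each other. The largest overlap was that of TUBA1B, 1309 bases with AC011603.2. TUBA1C also shares 666 with AC125611.3, and TUBB 538 with AL662797.1. No values were kept for AC011603.2, AC125611.3 and AL662797.1. The strand setting of the counting is not given, so listed values may hold fragments of the other strand. Of 8 genes listed as marks of this cell line, KRT8, KRT18, VIM, NEFM and HOXA9 were above 0 in all 12 libraries, LIN28B in 9, CDH2 in 4 and PAX2 in 2; the summed level of all 8 was 720 to 2345 FPKM, most of it from KRT8 (342 to 1951) and VIM (91.7 to 386), and all but PAX2 have an opposite-strand exon. Among marks of other cell types, DES, a muscle filament gene, was above 0 in 1 library; its part in the results was not tested.

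Profilin had the highest mean listed level and TUBB4B the lowest. Mean FPKM over the 12 libraries was 271 for PFN1, 246 for TUBB6, 118 for ACTG1, 61.9 for CFL1, 47.0 for ACTB, 29.5 for TUBA1B, 20.1 for TUBB, 18.7 for TUBA1A, 11.2 for TUBA1C and 7.3 for TUBB4B. The ranges over the libraries of each pair of neighbours in that order overlapped. This is an order of listed values, made with a strand setting that is not given. How far it is the order of mRNA levels was not tested. All 10 passed the minimum mean of 1 FPKM, and 9 were above 0 in every library.

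**Figure D1:**
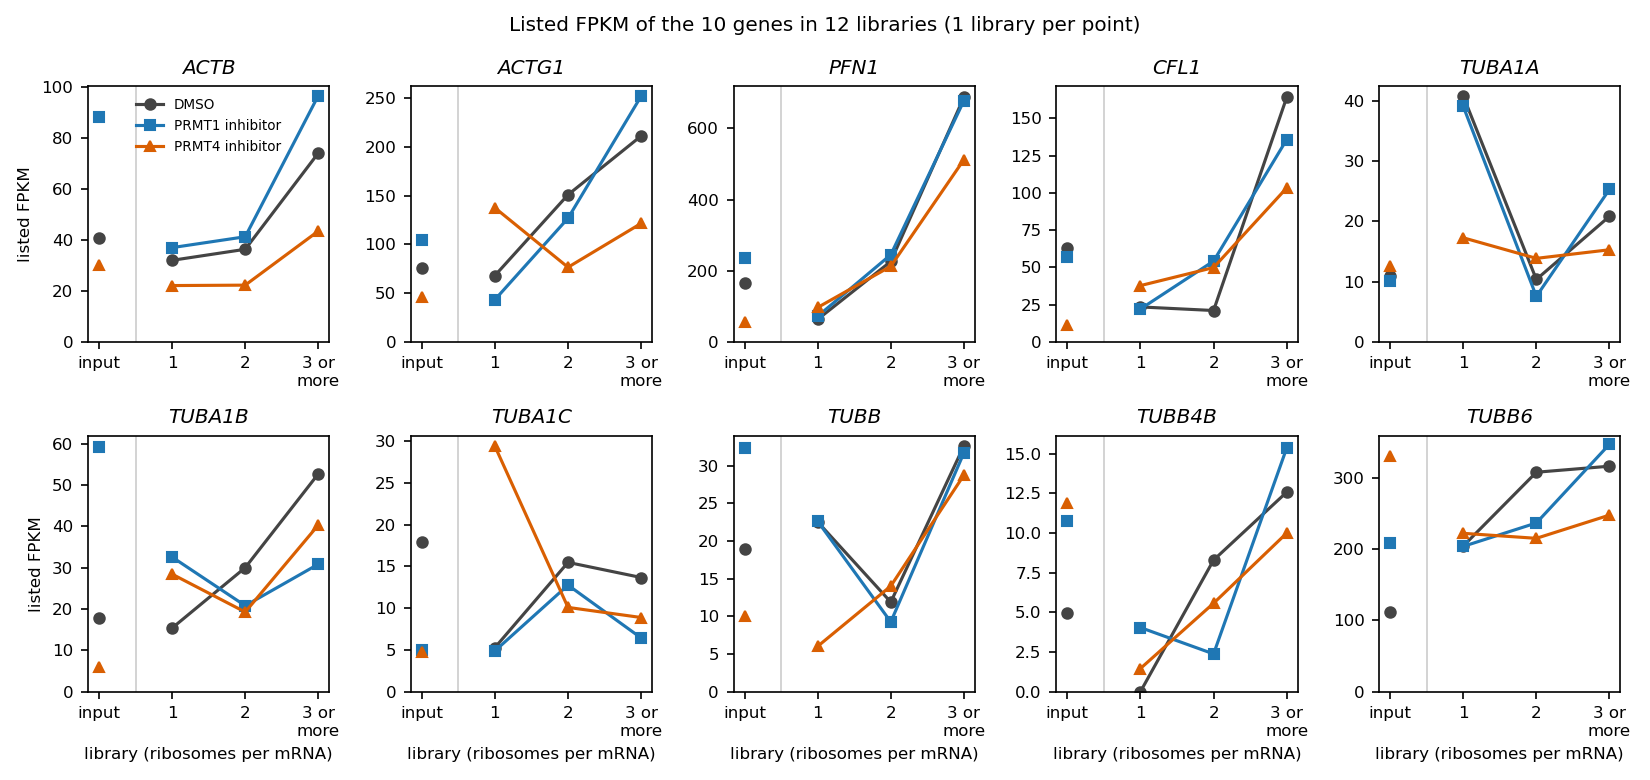
Listed FPKM (vertical axis, linear, from 0) of each gene in the input and in the fractions with 1, 2 and 3 or more ribosomes (horizontal axis); each point is 1 library and lines join the fractions of a gradient. PFN1 climbs from 63.1 to 688 FPKM in DMSO and climbs in the other gradients too, while TUBA1A is highest with 1 ribosome in all 3.

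The first question was how the listed values of these genes ran along the gradient. Listed values of PFN1, CFL1, ACTB and TUBB4B were higher with 3 or more ribosomes than with 1, by 8.96-, 5.29-, 2.49- and 6.46-fold in a limma fit over the 3 gradients. These were 4 of 10 genes, and 2.34% of all genes tested were called higher. No gene of the 10 was called lower, against 2.80% of all genes. Over all genes 253 were called higher and 303 lower, and 117 and 286 without centring. With 3 or more ribosomes every value lay above every value with 1 ribosome for 6 of the 10 (ACTB, PFN1, CFL1, TUBB, TUBB4B, TUBB6), which was so for 9.86% of genes; the opposite order was seen for none of the 10 and for 15.9% of genes.

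PFN1, profilin, moved furthest among the well-covered genes. In DMSO it was listed at 63.1, 226 and 688 FPKM with 1, 2 and 3 or more ribosomes. Under the PRMT1 inhibitor it stood at 72.0, 245 and 678, and with the PRMT4 inhibitor at 96.6, 212 and 512. It climbed at each step in all 3 gradients, as 2.57% of genes did. The ratio of 3 or more ribosomes to 1 was 10.9 in DMSO (interval 7.83 to 15.6), 9.42 with the PRMT1 inhibitor (6.84 to 13.4) and 5.31 with the PRMT4 inhibitor (3.92 to 7.25). The limma estimate was 3.16 ± 0.43 (log2, 3 gradients, SE from the fit to all 12 libraries, adjusted p = 0.00197). Its opposite-strand neighbour ENO3, muscle enolase, was listed at 12.7 to 60.6 FPKM over the 12 libraries. The part of this overlap in the PFN1 values was not tested.

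CFL1, cofilin, was low with 1 and 2 ribosomes and high with 3 or more. Its FPKM was 23.4, 21.0 and 164 along the DMSO gradient, 22.02, 54.2 and 136 with the PRMT1 inhibitor, and 37.7, 49.8 and 103 with the PRMT4 inhibitor. The lowest value with 3 or more ribosomes was above the highest with 1 or 2. The limma estimate was 2.40 ± 0.64 (log2, SE; adjusted p = 0.0484). Its opposite-strand neighbour MUS81, a DNA endonuclease subunit, was listed at 65.2 and 57.3 FPKM with 1 and 3 or more ribosomes in DMSO. MUS81 stood at 78.5 and 33.9 with the PRMT1 inhibitor and at 71.5 and 50.5 with the PRMT4 inhibitor. The part of this overlap in the CFL1 values was not tested.

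ACTB, beta-actin, was near level between 1 and 2 ribosomes and higher with 3 or more. Its listed values rose at each step in all 3 gradients, but the 95% intervals with 1 and with 2 ribosomes overlapped in each. Its FPKM was 32.0, 36.3 and 74.0 along the DMSO gradient, 36.9, 41.2 and 96.6 with the PRMT1 inhibitor, and 22.1, 22.2 and 43.5 with the PRMT4 inhibitor. The limma estimate was 1.32 ± 0.33 (log2, SE; adjusted p = 0.0368). ACTG1, gamma-actin, stood at 68.0, 151 and 211 FPKM along the DMSO gradient and at 43.3, 127 and 252 with the PRMT1 inhibitor. With the PRMT4 inhibitor the order differed, at 138, 76.5 and 122. The PRMT4 inhibitor library with 1 ribosome was thus above that with 3 or more, and limma gave 1.47 ± 0.48 (log2, SE, adjusted p = 0.102). With 1 treatment left out, the limma estimate was 1.34 without DMSO (adjusted p = 0.401) and 0.845 without the PRMT1 inhibitor (adjusted p = 0.548). Without the PRMT4 inhibitor, the treatment with the other order, it was 2.22 (limma adjusted p = 0.0179).

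The alpha-tubulins gave no call. TUBA1A was highest with 1 ribosome in each gradient, at 40.8, 10.4 and 20.9 FPKM in DMSO, 39.1, 7.55 and 25.3 with the PRMT1 inhibitor and 17.3, 13.9 and 15.3 with the PRMT4 inhibitor (limma -0.42 ± 0.48, log2, SE; adjusted p = 0.673). TUBA1B was listed at 15.4, 30.01 and 52.7 in DMSO, 32.6, 20.8 and 30.9 with the PRMT1 inhibitor and 28.4, 19.3 and 40.3 with the PRMT4 inhibitor (limma 0.86 ± 0.61; adjusted p = 0.472). TUBA1C was listed at 5.27, 15.5 and 13.7 in DMSO, 4.88, 12.8 and 6.43 with the PRMT1 inhibitor and 29.4, 10.1 and 8.88 with the PRMT4 inhibitor (limma 0.13 ± 0.74; adjusted p = 0.942). The 3 genes thus had unlike profiles, on values whose split among them is uncertain.

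Among the beta-tubulins, TUBB4B was called on few fragments. Its FPKM was 0, 8.29 and 12.6 along the DMSO gradient, 4.04, 2.38 and 15.4 with the PRMT1 inhibitor, and 1.46, 5.57 and 9.99 with the PRMT4 inhibitor, or about 0, 3 and 1 fragments with 1 ribosome against 10, 12 and 8 with 3 or more (limma 2.69 ± 0.68, log2, SE; adjusted p = 0.0400). TUBB was lowest with 2 ribosomes in DMSO and with the PRMT1 inhibitor, at 22.5, 11.9 and 32.6 and at 22.6, 9.26 and 31.7 FPKM. With the PRMT4 inhibitor it climbed, at 6.02, 14.0 and 28.8 (limma 1.17 ± 0.51; adjusted p = 0.217). TUBB6 differed least along the gradient, at 204, 308 and 316 FPKM in DMSO, 204, 237 and 347 with the PRMT1 inhibitor and 222, 215 and 248 with the PRMT4 inhibitor (limma 0.67 ± 0.29; adjusted p = 0.221). AFG3L2, a mitochondrial protease gene on its opposite strand, was also listed higher with 3 or more ribosomes than with 1, at 86.3 against 63.0 FPKM in DMSO, 90.9 against 60.9 with the PRMT1 inhibitor and 101 against 32.9 with the PRMT4 inhibitor; the part of this overlap in the TUBB6 values was not tested.

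The 3 gradients had different treatments, so the spread used by limma holds any effect of treatment on position. It is not only the spread of the plotted differences between gradients, since all 12 libraries went into the fit. The SE thus also holds the spread of the middle fractions and the inputs, among them the DMSO input that stood apart. For ACTB the SE was 0.326 both against 1 ribosome and against input. With 1 gradient left out, limma called 15 genes of all those tested without DMSO, 0 without the PRMT1 inhibitor (1528 at an unadjusted p under 0.05) and 210 without the PRMT4 inhibitor, against 556 with all 3; PFN1 then had an adjusted p of 0.0662, 0.0980 and 0.000945, CFL1 of 0.173, 0.309 and 0.0368, ACTB of 0.236, 0.284 and 0.0715, and TUBB4B of 0.271, 0.147 and 0.152. Without centring PFN1 alone of the 10 was called, and with a pseudocount of 5 the TUBB4B estimate was 1.49. When the fit was limited to genes averaging 20 FPKM or more, which 7 of the 10 do, 4 were called higher (ACTB, ACTG1, PFN1, CFL1), where 11.3% of genes were.

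**Figure D2:**
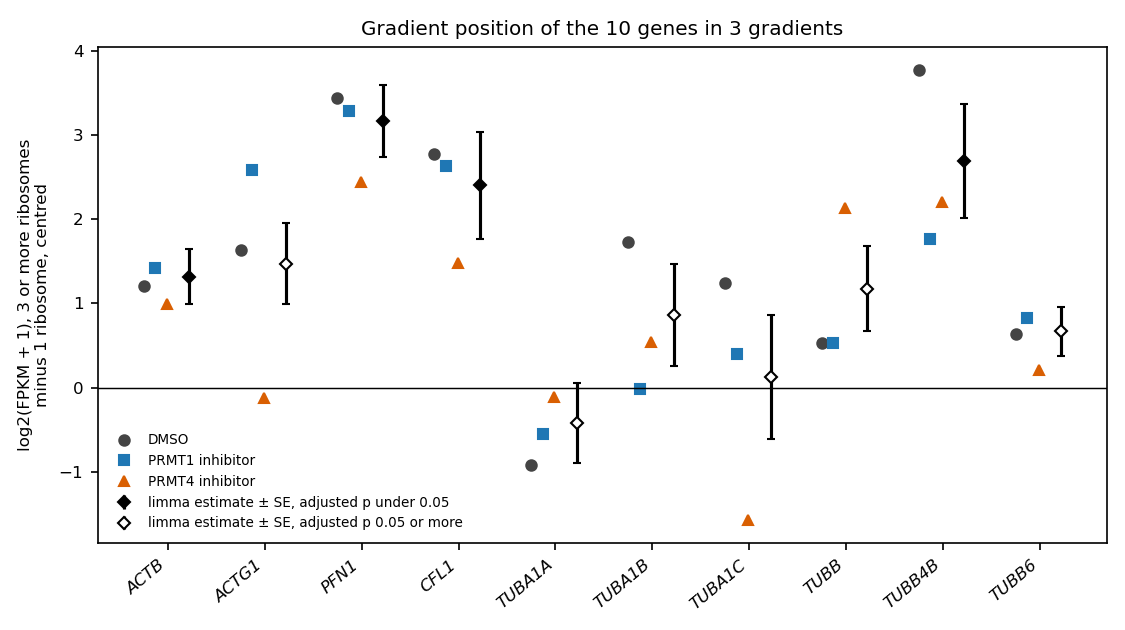
Difference in log2(FPKM + 1) between 3 or more ribosomes and 1 ribosome, centred on the median gene, for each gradient (coloured points) and as the limma estimate with its SE (diamonds, filled where the adjusted p is under 0.05). PFN1, CFL1, ACTB and TUBB4B have filled diamonds at 3.16, 2.40, 1.32 and 2.69, and the PRMT4 inhibitor point of ACTG1 lies at -0.13.

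Within a gradient, a difference of at least 2-fold after centring was counted without a test. Of the 10805 genes tested 2524 average 20 FPKM or more, against 7 of the 10. Lower genes have more counting error, and for the 2-fold counts the share among genes of like level was not counted. In DMSO 7 of the 10 genes were higher with 3 or more ribosomes than with 1 (22.6% of all genes were) and 0 lower (26.5%). With the PRMT1 inhibitor 5 were higher (22.3%) and 0 lower (27.3%), and with the PRMT4 inhibitor 4 were higher (22.5%) and 1, TUBA1C, lower (24.9%). The share of the FPKM of the 3 ribosome fractions that was listed with 3 or more ribosomes ran in DMSO from 28.9% for TUBA1A to 78.7% for CFL1. Under the PRMT1 inhibitor it ran from 26.7% for TUBA1C to 70.5% for TUBB4B, and with the PRMT4 inhibitor from 18.4% for TUBA1C to 62.4% for PFN1. Libraries were scaled one by one, so these are not shares of molecules.

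Against input, PFN1 was listed higher with 3 or more ribosomes in all 3 gradients, but limma made no call among the 10 genes; 3 of them had an unadjusted p under 0.05, and 0.0833% of all genes were called higher and 0.342% lower. For PFN1, input and heaviest fraction stood at 165 and 688 FPKM for DMSO, 235 and 678 for the PRMT1 inhibitor, then 55.4 and 512 for the PRMT4 inhibitor. By the 2-fold count after centring, under DMSO 1 gene of the 10 was higher, PFN1 (25.4% of all genes), and 1 lower, TUBA1C (20.3%). Under the PRMT1 inhibitor 4 were higher (24.1%) and 0 lower (24.0%), and under the PRMT4 inhibitor 5 were higher (21.9%) and 0 lower (19.8%); ACTG1, PFN1 and CFL1 were among them both times. Centring removed 0.68 (log2) from the DMSO comparison, which uses the input that stood apart. Its counts became 6 higher and 0 lower without centring, and 3 and 0 with upper-quartile scaling. With a pseudocount of 5 they were 4 and 0, and with no minimum 5 and 0. A pseudocount of 0.1 left them at 1 and 1. For PFN1 the limma estimate was 1.99 ± 0.43 (log2, SE, adjusted p = 0.0708). With 1 treatment left out it was 2.35 without DMSO (limma adjusted p = 0.437) and 2.22 without the PRMT1 inhibitor (adjusted p = 0.382). Without the PRMT4 inhibitor it was 1.41 (limma adjusted p = 0.0354). In the limma fit with all 3 gradients CFL1 gave 1.62 ± 0.64 (adjusted p = 0.279), ACTG1 1.11 ± 0.48 (adjusted p = 0.327) and ACTB 0.23 ± 0.33 (adjusted p = 0.808). The mean of the 3 ribosome fractions against input also gave no limma call among the 10, with 1 at an unadjusted p under 0.05 (0.0463% of all genes were called higher and 0.0555% lower).

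The second question was whether abundance in the input differed between treatments, where each value rests on 1 library and no test is possible. Differences were centred on the median gene, which removed 0.67 (log2) for the PRMT1 inhibitor and 0.57 for the PRMT4 inhibitor; both comparisons use the same DMSO library, the one that stood apart. With the PRMT4 inhibitor 6 of the 10 genes were at least 2-fold lower (19.6% of all genes were) and 0 higher (28.1%). With the PRMT1 inhibitor 1 was lower, TUBA1C (16.5%), and 1 higher, TUBA1B (22.8%). Fewer transcripts per cell and a different mix of other RNAs cannot be told apart in such values.

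Cofilin had the largest difference from the DMSO input among the 10 genes. CFL1 stood at 62.9 FPKM without inhibitor, 57.2 with the PRMT1 inhibitor and 11.5 with the PRMT4 inhibitor, about 59, 43 and 10 fragments. The PRMT4 inhibitor library was low and the other two were closer to each other, and the centred difference from DMSO was -2.92 (log2) with the PRMT4 inhibitor and -0.81 with the PRMT1 inhibitor. PFN1, at 165, 235 and 55.4 FPKM, was also lowest with the PRMT4 inhibitor (-2.13 against DMSO). ACTG1 was listed at 75.6, 105 and 45.9 (-1.27) and ACTB at 40.6, 88.3 and 30.2 (-0.98). The ratio of DMSO to PRMT4 inhibitor FPKM, not centred, was 5.46 for CFL1 (interval 2.78 to 12.03), 2.98 for PFN1 (1.99 to 4.59), 1.65 for ACTG1 (1.16 to 2.41) and 1.35 for ACTB (0.808 to 2.30). The listed value was lowest with the PRMT4 inhibitor for these 4 genes, each on 1 library, and the ACTB interval held 1. How many of all genes had that order was not counted.

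Tubulin values in the inputs split in both directions. TUBA1B stood at 17.8, 59.2 and 6.01 FPKM for DMSO, the PRMT1 inhibitor and the PRMT4 inhibitor, with centred differences from DMSO of 1.004 and -1.99 (log2). TUBA1C was listed at 17.9, 4.94 and 4.78 (-2.35 and -2.28), and TUBB at 19.0, 32.4 and 10.0 (0.07 and -1.43). TUBB6 went the other way with the PRMT4 inhibitor, at 112, 209 and 331 FPKM (0.22 and 0.99). The ratio of DMSO to PRMT4 inhibitor FPKM, not centred, was 2.965 for TUBA1B (interval 0.896 to 9.336) and 1.90 for TUBB (0.928 to 3.967). Both of these intervals held 1, and TUBA1B rests on about 14 and 5 fragments. The same ratio was 3.75 for TUBA1C (1.61 to 10.2) and 0.338 for TUBB6 (0.269 to 0.416). TUBA1A was listed at 10.99, 10.2 and 12.6, and TUBB4B at 4.95, 10.8 and 11.9, about 4, 7 and 9 fragments. AFG3L2, opposite TUBB6, was listed at 17.8, 54.6 and 49.5 FPKM in the same inputs. These counts depend on the scaling. Without centring 4 genes were lower (PFN1, CFL1, TUBA1B, TUBA1C) and 2 higher (TUBB4B, TUBB6) with the PRMT4 inhibitor; with upper-quartile scaling 7 were lower and 0 higher. With the PRMT1 inhibitor ACTB and TUBA1B were higher without centring, and no gene was with upper-quartile scaling, where TUBA1B was at 0.945 (log2).

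**Figure D3:**
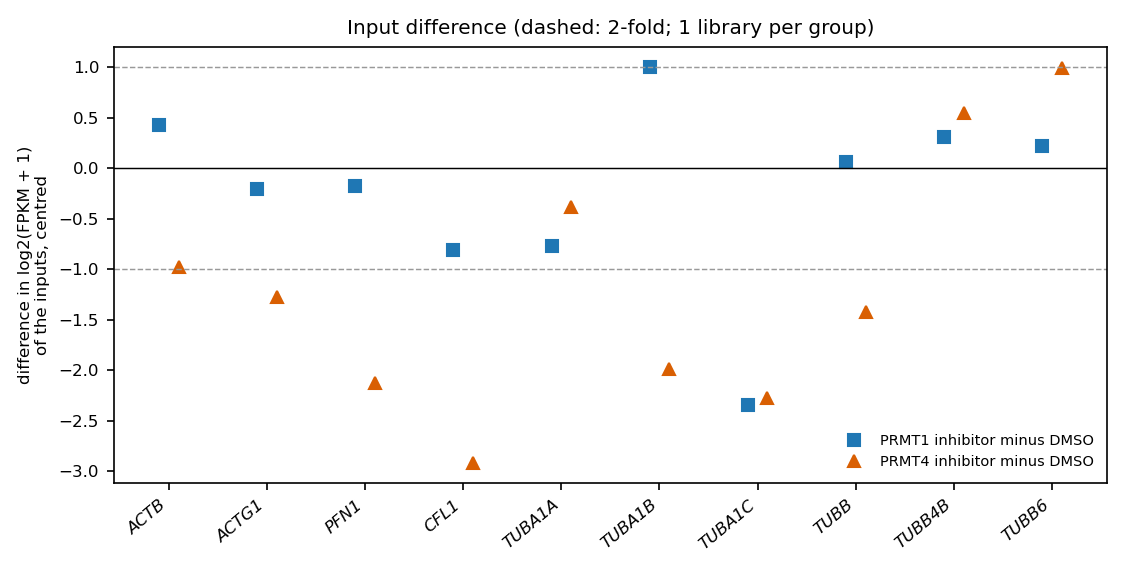
Centred difference in log2(FPKM + 1) between each inhibitor input and the DMSO input (vertical axis) for the 10 genes; each point compares 1 library with 1 library and dashed lines mark 2-fold. With the PRMT4 inhibitor 6 points lie below the lower line, the lowest being CFL1 at -2.92, and TUBB6 lies at 0.99.

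Set directly against each other, the inputs of both inhibitors differed by at least 2-fold at 6 of the 10 genes, which were all lower with the PRMT4 inhibitor (28.3% of all genes were lower and 26.3% higher). That comparison does not use the DMSO input. The genes were ACTB, ACTG1, PFN1, CFL1, TUBA1B and TUBB, with centred differences of -1.14 to -3.08 (log2), the last for TUBA1B. That last value rests on about 5 fragments with the PRMT4 inhibitor and 38 with the PRMT1 inhibitor.

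The third question was whether the listed values of these genes on ribosomes differed between each inhibitor and DMSO. With 3 or more ribosomes no gene of the 10 differed by 2-fold from DMSO with either inhibitor. Of all genes 17.6% were higher and 17.2% lower with the PRMT1 inhibitor, and 18.0% and 17.5% with the PRMT4 inhibitor. All genes include those near the minimum of 1 FPKM, and the share among genes of like level was not counted. All 10 were listed below DMSO with the PRMT4 inhibitor, as 46.8% of all genes were, with centred differences of -0.18 (TUBB) to -0.79 (ACTG1). The ratio of PRMT4 inhibitor to DMSO FPKM was 0.575 for ACTG1 (interval 0.461 to 0.710), 0.587 for ACTB (0.385 to 0.865), 0.630 for CFL1 (0.484 to 0.821), 0.745 for PFN1 (0.640 to 0.862) and 0.783 for TUBB6 (0.659 to 0.921). For the other 5 genes the interval held 1. With the PRMT1 inhibitor 5 were listed below DMSO, as 44.7% of genes were, and the ratio was 0.986 for PFN1 (0.857 to 1.13) and 1.19 for ACTG1 (0.994 to 1.42). TUBA1B, at 0.585 (0.336 to 0.981), was the gene of the 10 whose interval did not hold 1.

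In the fraction with 1 ribosome, values moved both ways. With the PRMT4 inhibitor ACTG1 (138 against 68.0 FPKM in DMSO), TUBA1C (29.4 against 5.27) and TUBB4B (1.46 against 0) were higher, 3 of 10 where 20.6% of all genes were. TUBA1A (17.3 against 40.8) and TUBB (6.02 against 22.5) were lower, where 19.4% were. With the PRMT1 inhibitor TUBA1B (32.6 against 15.4) and TUBB4B (4.04 against 0) were higher (21.6%) and 0 lower (17.9%). The TUBB4B values stand for 3 fragments or fewer. With 2 ribosomes CFL1 was higher with both inhibitors, at 54.2 and 49.8 against 21.0 FPKM, and TUBB4B was lower with the PRMT1 inhibitor, at 2.38 against 8.29; 1 of 10 was higher with each inhibitor (16.0% and 17.6% of all genes), and 1 and 0 were lower (16.4% and 15.1%).

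Gradient position, meaning the centred log2 difference between the heaviest and lightest fractions, was at least 2-fold lower than in DMSO for 6 of the 10 genes with the PRMT4 inhibitor (26.4% of all genes were lower) and higher for 1 (26.2%). The 6 were ACTG1, PFN1, CFL1, TUBA1B, TUBA1C and TUBB4B, at -1.82, -1.05, -1.35, -1.24, -2.87 and -1.62 (log2), and the gene that was higher was TUBB, at 1.55. Under the PRMT1 inhibitor 2 were lower, TUBA1B at -1.75 and TUBB4B at -2.03 (26.7% of all genes), and 0 higher (25.7%). Both differences subtract the same DMSO ratio, in which 7 of the 10 genes were at least 2-fold higher. TUBB4B was listed at 0 with 1 ribosome in DMSO, so its differences depend on the pseudocount. No test of these differences was possible with 1 library per group.

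Few other cytoskeleton genes were called along the gradient. Of 111 names in 9 lists, 103 were in the table and 91 reached the minimum mean of 1 FPKM, and 3 were called higher and 0 lower by limma with 3 or more ribosomes against 1 (2.34% and 2.80% of all genes). The median difference was 0.49 over the 91 genes, 1.24 over the 10 genes described here and 0.04 over all genes tested. Of the 91 genes 46 have an opposite-strand exon, and the median of the other 45 was 0.42. TBCB, a tubulin folding cofactor, was listed at 14.4, 4.54 and 9.38 FPKM with 1 ribosome and 92.0, 130 and 49.3 with 3 or more in DMSO, the PRMT1 inhibitor and the PRMT4 inhibitor (3.30 ± 0.49, log2, SE; limma adjusted p = 0.0031). TPM3, a tropomyosin that lines actin filaments, and TUBG1, the gamma-tubulin that nucleates microtubules, were the other calls; they fall outside the rule for naming and were chosen after their values were seen. TPM3 was listed at 1.77, 16.1 and 0 FPKM with 1 ribosome and 28.3, 59.3 and 43.4 with 3 or more (limma adjusted p = 0.0397). TUBG1 was at 0 with 1 ribosome in all 3 gradients and at 8.80, 9.22 and 4.37 with 3 or more (limma adjusted p = 0.0293). TBCB and TUBG1 have an opposite-strand exon and TPM3 does not.

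By list, the median was highest for crosslinkers, tropomyosins and non-muscle myosin, at 0.81 over 17 genes with TPM3 as the call. The list for binding actin monomers and severing filaments had a median of 0.76 over 12 and no call. In it PFN2, a second profilin, was at 1.22 ± 0.56 (limma adjusted p = 0.245) and CORO1B, a coronin, at 0.88 ± 0.67 (limma adjusted p = 0.515). The tubulin and actin folding list had a median of 0.45 over 18 with TBCB as the call, and its lowest well-covered gene was the prefoldin PFDN1 at -0.61. Microtubule-associated proteins had a median of 0.37 over 13 and no call, from MAPRE3, a plus-end binding protein, at -0.75 to NUMA1, a spindle pole protein, at 0.44 among the well-covered genes. The Arp2/3 and capping list, whose complex branches actin filaments, had a median of 0.06 over 12 and no call, with ARPC5L at -1.42 and ARPC1B at -0.30. Tubulins outside the 10 had a median of -0.08 over 13, with TUBA8 at -1.42, TUBA3D at 0.64 and TUBG1 as the call. Among genes with no opposite-strand exon, the medians of these lists, in the order given, were 1.16, 0.88, -0.1, 0.61, -1.42 and -0.18. They rest on 4, 7, 10, 9, 7 and 6 genes. In the tubulin mRNA decay list TTC5 was below the minimum, and SCAPER, CNOT1 and CNOT11, which act with it, had a median of 0.05 over 3; SRF and its cofactors had -0.04 over 2, and of 2 further actins in the table the 1 that reached the minimum, ACTA2, was at -1.70, each list with no call.

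**Figure D4:**
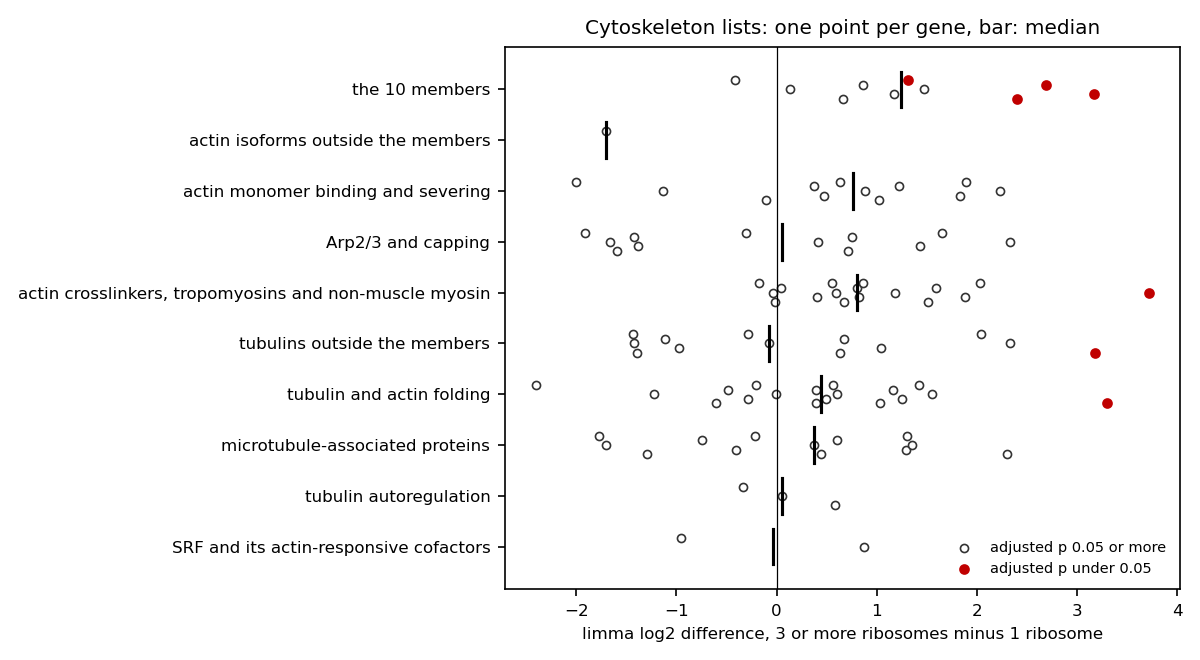
Limma log2 difference between 3 or more ribosomes and 1 ribosome (horizontal axis) for each gene of the 10 described here and of the 9 cytoskeleton lists (rows); bars mark medians and red points an adjusted p under 0.05. The 10 genes have their median at 1.24 and 4 red points, and the lists below them hold 3.

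In the inputs the 91 genes of these lists had a median centred difference of 0.02 (log2) with the PRMT1 inhibitor and -0.30 with the PRMT4 inhibitor. With the PRMT4 inhibitor 29 were at least 2-fold higher and 25 lower (28.1% and 19.6% of all genes), against 0 and 6 of the 10 genes described here, whose median was -1.35. For monomer-binding and severing genes the median was -0.44 with 4 of 12 lower and 2 higher, and for tubulins outside the 10 it was 0.90 with 1 of 13 lower and 6 higher.

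Across the 12 libraries the genes whose centred log2(FPKM + 1) was most like that of ACTB, among 1194 genes averaging 50 FPKM or more, were EEF1D (Pearson's r 0.96), ICAM3 (0.93), SNAP47 (0.92), ATP6V1G2 (0.92) and RANBP1 (0.90). For TUBB they were GAPDH (0.85), SPOUT1 (0.84), EEF1D (0.83), SNAP47 (0.82) and JMJD8 (0.79). All of these have an opposite-strand exon. Among the 10 genes, ACTB was most like TUBB (0.81), followed by PFN1 and CFL1 (both 0.69), and least like TUBA1C (-0.03). The points share libraries and gradients, and these are descriptions of 12 libraries.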

How the data were processed

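Per the submitters' processing notes, the authors trimmed reads with cutadapt 1.18, aligned them with STAR 2.5.3a to GRCh37 and quantified genes with RSEM; per the labels' protocols, libraries were made with a directional kit. The deposited values are FPKM per Ensembl gene, with no counts. IDs were matched to symbols for 15299 of 15534. GENCODE release 29, on another build, gave lengths, coding sequences and opposite-strand overlaps only. Values were analysed as log2(FPKM + 1) for 10805 genes averaging 1 FPKM or more, centred on the median; fold changes are on that scale, which understates low genes. What 1 fragment adds to FPKM was estimated per library from single-transcript genes with a fragment length of 150: 94.2 to 98.3% of low values came within 0.15 of a whole number. Fraction contrasts were fitted with limma 3.58.1 on all 12 libraries together (R 4.3.3, treatment as block, trend, Benjamini-Hochberg over all genes, threshold 0.05). The fit was also run on simulated data with counting error only. Those data had no spread between gradients, so that run cannot show how the fit handles such spread. Treatment differences have 1 library per group and no p-value; 2-fold was the call. The members, lists and rules were chosen with earlier results of these data known. All 10 members are named; of each list, the highest and lowest gene along the gradient among those averaging 20 FPKM or more; for likeness, the 5 genes with the highest r. Alternatives are given at the end. Python 3.11.15 and scipy 1.17.1 gave the other values. One marker of another cell type is not reported here.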

Additional observations from a re-analysis of the deposited data

Results flagged for a closer look

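TUBA1C was at least 2-fold apart in opposite directions in different gradients. Its centred log2 difference between 3 or more ribosomes and 1 ribosome was 1.24 in DMSO, 0.40 with the PRMT1 inhibitor and -1.57 with the PRMT4 inhibitor. The DMSO ratio rests on about 21 and 8 fragments and the PRMT4 inhibitor ratio on about 14 and 39. The difference between treatments was not tested, since each has 1 gradient.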

How the results depend on the processing

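With 3 or more ribosomes against 1, limma called 4 of the 10 genes and 556 of all genes. A pseudocount of 0.1 left 2 of the 10 (ACTB, PFN1), no minimum left 1, no centring 1 and no trend 1 (73 of all genes), each time PFN1. Leaving out 1 treatment gave 0 to 3 of the 10 and 0 to 210 of all genes. TUBA1C, never called, turned to -0.0192 (log2) without centring, and with 1 treatment left out ran from -0.4761 (DMSO) through -0.075 (PRMT1 inhibitor) to 0.9364 (PRMT4 inhibitor). ACTG1 was called at a mean FPKM of at least 20 (adjusted p = 0.0431, limma). Without the treatment block ACTB had an adjusted p of 0.127 in limma and PFN1, CFL1 and TUBB4B were called. No paired analysis by replicate number was possible because the labels give none.

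Against input, limma's 46 calls became 18 with a pseudocount of 0.1, 6 with 5, 4 with no minimum, 159 at a mean FPKM of at least 20, 4 without centring, 20 with upper-quartile scaling, 0 without a trend (1349 at an unadjusted p under 0.05) and 0 to 162 with 1 treatment left out (934 to 1833 unadjusted). Of the 10 genes 0 were called, 1 (PFN1) at a mean FPKM of at least 20, and 0 to 1 with 1 treatment left out. For the mean of the fractions against input, 11 calls became 21 with a pseudocount of 0.1, 41 at a mean FPKM of at least 20, 21 without centring, 3 without the treatment block, 6 without a trend and 0 to 218 with 1 treatment left out.

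Of 60 fraction differences 10 reached 2-fold, 5 with a pseudocount of 5, and 22 reached 1.5-fold. In these comparisons 16.0 to 21.6% of all genes were 2-fold higher and 15.1 to 19.4% lower. Of 30 ratios to input 11 reached 2-fold, 15 without centring, and 18 reached 1.5-fold. Here 21.9 to 25.4% of all genes were 2-fold higher and 19.8 to 24.0% lower. For input differences these shares were 22.8 to 28.1% and 16.5 to 28.3%. They were 22.3 to 22.6% and 24.9 to 27.3% for gradient positions, and 25.7 to 26.2% and 26.4 to 26.7% for position differences. For ACTB and ACTG1 alone, which have no opposite-strand exon, 3 of 6 input differences and 1 of 12 fraction differences reached 2-fold. So did 4 of 6 gradient positions, 2 of 6 ratios to input and 1 of 4 position differences. In the same order the numbers were 14, 10, 17, 11 and 9 over all 10 genes, and the smaller numbers follow from fewer genes. ACTB and ACTG1 were listed with the same strand setting, which is not given, so they cannot show what part the other strand had. Of 61 single-library differences past 2-fold, 12 fell below it with a pseudocount of 5, 4 with upper-quartile scaling, 4 with centring on genes averaging 20 FPKM or more, 3 without centring, 2 with no minimum and 1 with a pseudocount of 0.1; none changed sign under these settings. TUBA1B in the PRMT1 inhibitor input, at 1.004 (log2), was below 2-fold with a pseudocount of 0.1 (0.90), upper-quartile scaling (0.945) and the 20 FPKM minimum (0.709). TUBB6 in the PRMT4 inhibitor input passed 2-fold with a pseudocount of 5 (1.247), no minimum (1.413) and no centring (1.556). Depth limits TUBB4B and TUBA1C most.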
